A study of Mus musculus with 2 samples.

Results

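The 8 genes described here build the contacts between neighbouring cells and were followed through the cell types of the neurohypophysis (NH), the posterior lobe of the pituitary. They are the claudins *Cldn5*, *Cldn10* and *Cldn11*, the connexins *Gja1*, *Gjb2*, *Gjb6* and *Gjd2*, and *Tjp1*, which codes for a scaffold protein of tight junctions. They were taken by symbol from the 27998 genes of the count matrices and the 15025 genes of the deposited cluster means, and all 8 were found in both. The cells came from dissected NH of C57BL/6 male mice of 3 months of age, pooled from 5 mice in each of 2 libraries, and neither pool was treated or compared with another condition. The 2 pools are replicates of one condition, the tissue also held cells of the adjacent intermediate lobe (IL), and cells of one pool are not replicates of each other.

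Claudins are membrane proteins that seal the space between cells or leave charge-selective pores in it, and scaffold proteins such as that of *Tjp1* tie them to the cytoskeleton. Connexins form the channels of gap junctions, through which small molecules and ions pass directly from cell to cell. Pituicytes, the resident glia of the NH, are known to be coupled by gap junctions, and the capillaries of the NH are fenestrated rather than closed by a blood-brain barrier.

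Counts were UMIs, distinct tagged mRNA molecules, in 528 cells, 273 of pool 1 with 699676 UMIs and 255 of pool 2 with 726706 UMIs. The cells were of 7 types, with 196 pituicytes, 148 IL cells, 95 macrophage/microglia, 42 T-cell like cells, 23 epithelial-like cells, 13 vascular endothelia and 11 VLMC (vascular and leptomeningeal cells). Levels are counts per 1e6 UMIs (CPM) of all cells of a type in a pool, and shares of cells are given at full depth and after thinning each cell to 1000 UMIs. The type markers were highest in their own type in both pools for 7 of 7 pituicyte, 3 of 4 IL, 5 of 6 endothelial and 6 of 6 VLMC markers. This held for 4 of 4 macrophage/microglia, 4 of 4 T-cell like and 6 of 6 epithelial-like markers. Of the 11 VLMC, 2 had no UMI of the VLMC markers. The study named the pituicytes partly by *Gja1*, and all clusters were built on expressed genes, so the contrasts of a type with the others are not independent of the types. No cell barcode was shared between the pools, 0 of 528. The p-values rest on a spread between the 2 pools that was estimated largely over all genes and types together. They do not measure the pool spread of a single gene.

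Nearly all *Gja1* and *Cldn10* UMIs lay in pituicytes, and the sequences in front of these genes are shown because both genes were highest in this cell type. *Gja1* lies on chr10:56377330-56402513 and *Cldn10* on chr14:118787908-118875489, both on the plus strand of GRCm38. Each sequence is RefSeq's GRCm38.p6 stretch from 250 bases before a transcription start to 50 bases after it, 5′ to 3′ on the plus strand. For *Cldn10*, RefSeq gives a pair of starts, and the counts do not tell transcripts of one from the other. The windows are chr10:56377050-56377349 for *Gja1*, chr14:118787621-118787920 for the upstream start of *Cldn10* and chr14:118854700-118854999 for its downstream start. Capitals mark the matches to the searched motifs.
Gja1: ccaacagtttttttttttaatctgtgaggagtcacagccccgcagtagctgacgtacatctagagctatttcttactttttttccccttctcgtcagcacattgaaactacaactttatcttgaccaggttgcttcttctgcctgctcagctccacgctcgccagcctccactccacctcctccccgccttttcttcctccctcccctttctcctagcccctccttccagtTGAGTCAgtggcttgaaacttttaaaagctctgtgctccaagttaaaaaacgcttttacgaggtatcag
Cldn10, upstream start: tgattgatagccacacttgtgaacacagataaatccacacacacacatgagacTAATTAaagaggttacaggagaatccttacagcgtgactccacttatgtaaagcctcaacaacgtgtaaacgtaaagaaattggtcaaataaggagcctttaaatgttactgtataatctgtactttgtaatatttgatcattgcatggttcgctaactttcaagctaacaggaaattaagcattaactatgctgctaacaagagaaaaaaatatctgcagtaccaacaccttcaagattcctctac
Cldn10, downstream start: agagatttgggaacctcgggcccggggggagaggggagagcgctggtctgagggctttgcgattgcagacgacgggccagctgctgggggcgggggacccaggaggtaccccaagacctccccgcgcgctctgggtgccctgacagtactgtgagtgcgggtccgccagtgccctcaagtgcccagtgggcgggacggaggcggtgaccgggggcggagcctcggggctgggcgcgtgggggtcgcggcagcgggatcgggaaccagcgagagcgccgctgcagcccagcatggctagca

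Searched on both strands were TAATTA, the core read by many homeodomain factors, TGACTCA, the AP-1 site, ACAAT, the core of SOX sites, and TATAAA, the TATA box. The *Gja1* window held TGACTCA once, on the minus strand at position 232 counted from 1 at the 5′ end of the window, as did 5.20% of the 32851 promoters. The upstream *Cldn10* window held TAATTA once, at position 54, as did 5.29% of all promoters. No other match was found in the 3 windows, whereas ACAAT and TATAAA occurred in 31.0% and 13.6% of all promoters. The *Cldn10* windows differed in base composition, with 36.0% G and C and 4 CpG upstream but 72.0% and 27 CpG downstream, and the *Gja1* window had 47.7% and 8 CpG. The median promoter had 52.7% and 7 CpG. These matches describe the letters of the windows and do not show that a factor is bound.

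*Gja1*, the main connexin of astrocytes and of many other cells, was highest in pituicytes. Of its 360 UMIs in 149 cells, 95.3% were in pituicytes, which held 34.3% of all UMIs. Pituicytes had 624 CPM in pool 1 and 773 CPM in pool 2, with a mean of 699 ± 106 CPM (SD, n = 2). Both pituicyte values lay above every value of the other types, the highest of which was in vascular endothelia. The *Gja1* level was 353 CPM in pool 1 and 240 CPM in pool 2 in vascular endothelia (296 ± 79.4, SD, n = 2), from 4 and 3 UMIs. In VLMC it was 0 and 132 CPM, from 0 and 2 UMIs that lay in 1 cell, in IL cells 17.8 and 8.01 CPM, and in epithelial-like cells 0 and 16.9 CPM. The 95 macrophage/microglia and the 42 T-cell like cells had no *Gja1* UMI, so that the pituicyte level was at least 45.95-fold and at least 19.6-fold higher than the limit that 3 counts over both pools set for them.

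**Figure D1:**
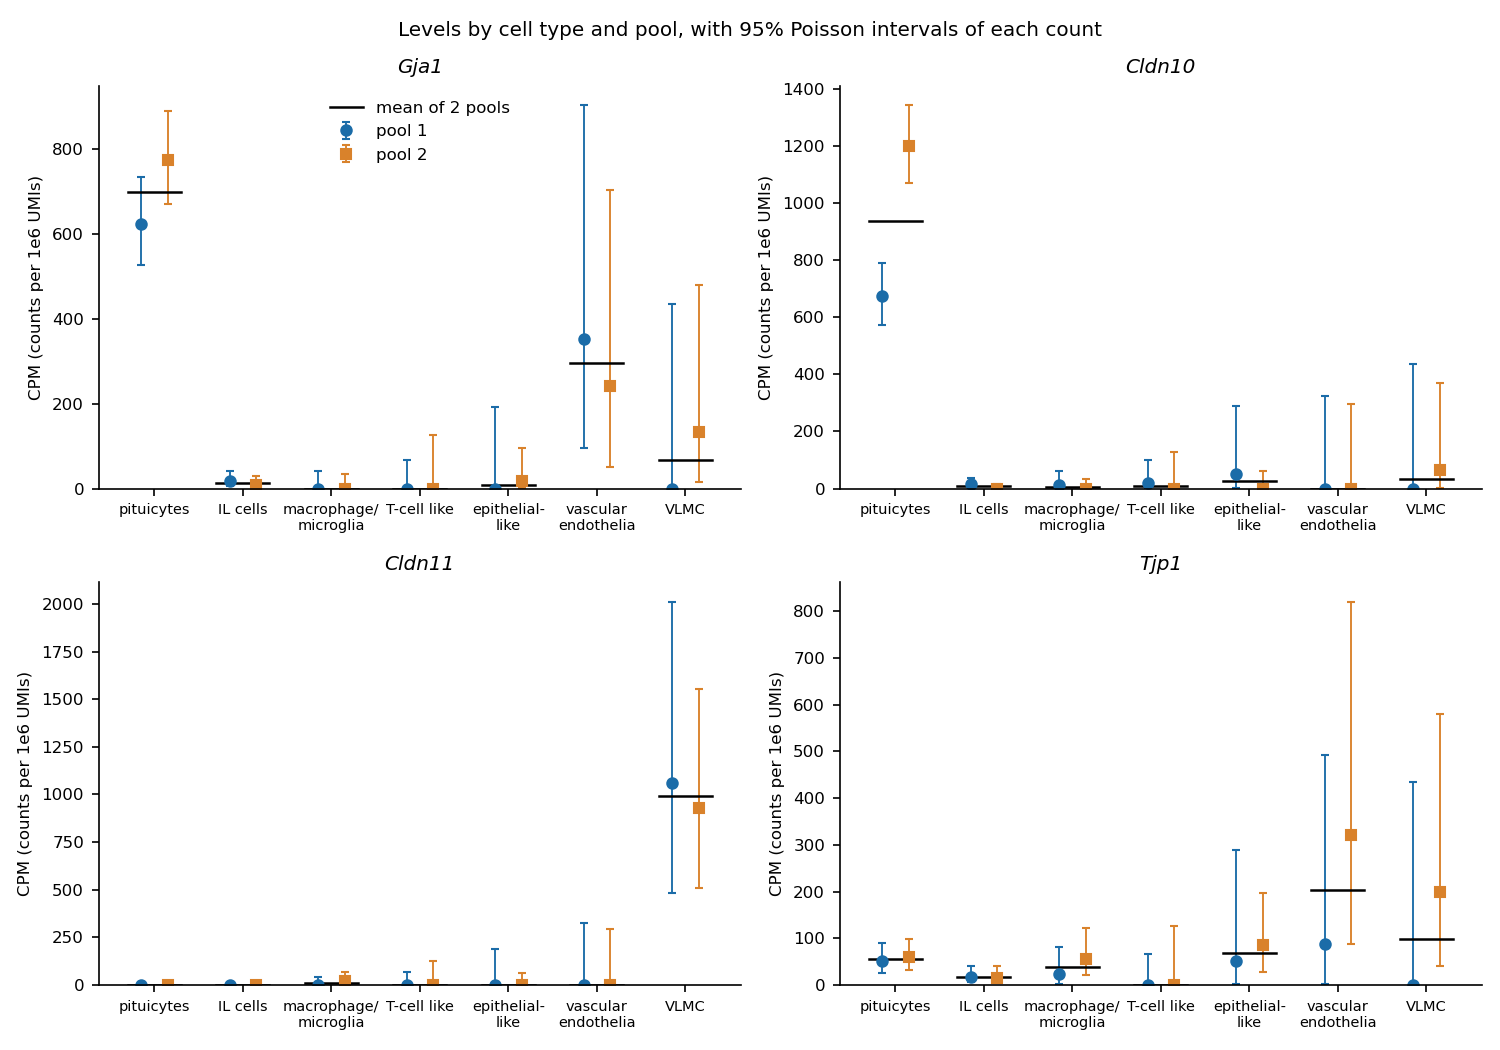
Levels of 4 of the junction genes in CPM (vertical axes) for the 7 cell types (horizontal axes), with a circle for pool 1, a square for pool 2, 95% Poisson intervals of the counts and a black line at the mean of the 2 pools. *Gja1* and *Cldn10* are highest in pituicytes in both pools, *Cldn11* stands at 1060 and 927 CPM in VLMC, and *Tjp1* has its highest mean, with wide intervals, in vascular endothelia.

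In edgeR's quasi-likelihood test, *Gja1* in pituicytes exceeded the average of the 6 remaining types by 4.12 on the natural log (ln) scale (SE 0.28, Benjamini-Hochberg adjusted p = 2.51e-46). The median of all 4510 genes tested was 0.412 in this contrast, and 16.8% of them were called higher, which needs an ln fold change of 1 or more and an adjusted p no larger than 0.05. The fitted value rests in part on the small count that edgeR adds where types had no UMI. When the cells were clustered again without any junction gene, the ln fold change of *Gja1* was 5.06 (adjusted p = 3.60e-60). That value is against 4 types, since no cluster was named vascular endothelia or VLMC there, and the 13 endothelial cells and 7 of the VLMC fell among the epithelial-like cells. Each new cluster took the type name that most of its cells had before. Of the 196 pituicytes, 192 kept their name, so the contrast is largely one of the same cells.

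*Gja1* was also called higher in vascular endothelia, by an ln fold change of 2.40 (SE 0.65, adjusted p = 0.00864), where 3.41% of the genes were called. It was detected in 6 of the 13 endothelial cells, with 7 UMIs. The free RNA of the droplets, estimated with a profile from pool 1 alone, came to 0.115 UMIs there. The 7 pituicyte markers together had 0 UMIs in the endothelia of pool 1 and 3 UMIs in those of pool 2, against 6569 and 6699 CPM in pituicytes. *Rgs5*, a pericyte gene, had 23 UMIs in the same 13 cells, while the other 4 pericyte markers *Kcnj8*, *Abcc9*, *Pdgfrb* and *Higd1b* had none there. The parts of pituicyte RNA and of pericyte RNA in the *Gja1* value were not tested. The call was lost without either pool of endothelia, with adjusted p = 0.227 without pool 1 and 0.0727 without pool 2, and it was lost without the filter on low counts (adjusted p = 0.0593).

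Directly compared, pituicytes exceeded vascular endothelia in *Gja1* by 1.47 on the ln scale (SE 0.39, adjusted p = 0.0031), a contrast in which 7.12% of the genes were called, here by the adjusted p alone. This pair was chosen as the highest and the next level. The difference was 0.864 with library size alone as the scaling (adjusted p = 0.223) and 1.03 with a mitochondrial limit of 10% (adjusted p = 0.178), so the order of these neighbours was not past the threshold under each setting. Vascular endothelia and VLMC did not overlap in the 2 pools, but the counting intervals of their summed counts did, from 118 to 605 CPM and from 10.3 to 306 CPM. The remaining types overlapped with VLMC.

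By single cells, 49.5% of the pituicytes had a *Gja1* UMI at 1000 UMIs per cell (exact 95% interval 42.3% to 56.7%) and 70.4% at full depth. In vascular endothelia the share was 30.8% (9.09% to 61.4%) and 46.2%. None of the 137 macrophage/microglia and T-cell like cells, used as the background, had one, which allows a share of up to 2.19% with a median depth of 1678 UMIs against 2055.5 in pituicytes. The highest pituicyte held 7 *Gja1* UMIs in pool 1 and 12 in pool 2, and the median was 1 in both. Intervals and limits cover counting error only.

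*Cldn10*, which codes for a claudin that forms ion-selective pores between cells, was found mainly in pituicytes. Of its 471 UMIs in 140 cells, 463 or 98.3% were in pituicytes. Pituicytes had 675 CPM in pool 1 and 1199 CPM in pool 2 (937 ± 371, SD, n = 2). The values in all other types were between 0 and 66.2 CPM, from at most 4 UMIs per sum, and none overlapped with those of pituicytes. The 4 UMIs in IL cells compare with 3.98 UMIs that free RNA would give there, and vascular endothelia had no UMI, so that pituicytes were at least 7.52-fold higher.

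In the test against the other 6 types, *Cldn10* was higher in pituicytes by 4.73 on the ln scale (SE 0.28, adjusted p = 4.75e-62 in edgeR). It passed the filter on low counts only through its pituicyte values, so this test is not independent of the filter. With the cells clustered again without junction genes, edgeR gave 4.66 (adjusted p = 2.67e-77) against the 4 types left, on largely the same pituicytes. Against VLMC, the type with the next level, the ln fold change was 3.59 (SE 0.58, adjusted p = 9.11e-08), where 4.43% of the genes were called. DESeq2 gave 3.14 for that pair with an adjusted p of 0.305, past the threshold no longer. The other 6 types followed with 0 to 4 UMIs each and did not differ beyond their spread.

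At 1000 UMIs per cell, 45.9% of the pituicytes had a *Cldn10* UMI (38.8% to 53.2%), and 67.3% had one at full depth. Among the 137 macrophage/microglia and T-cell like cells, 2 had one at full depth (1.46%) and none after thinning. The share of *Cldn10* pituicytes after thinning was 40.7% in pool 1 and 52.3% in pool 2, with intervals that overlapped.

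**Figure D2:**
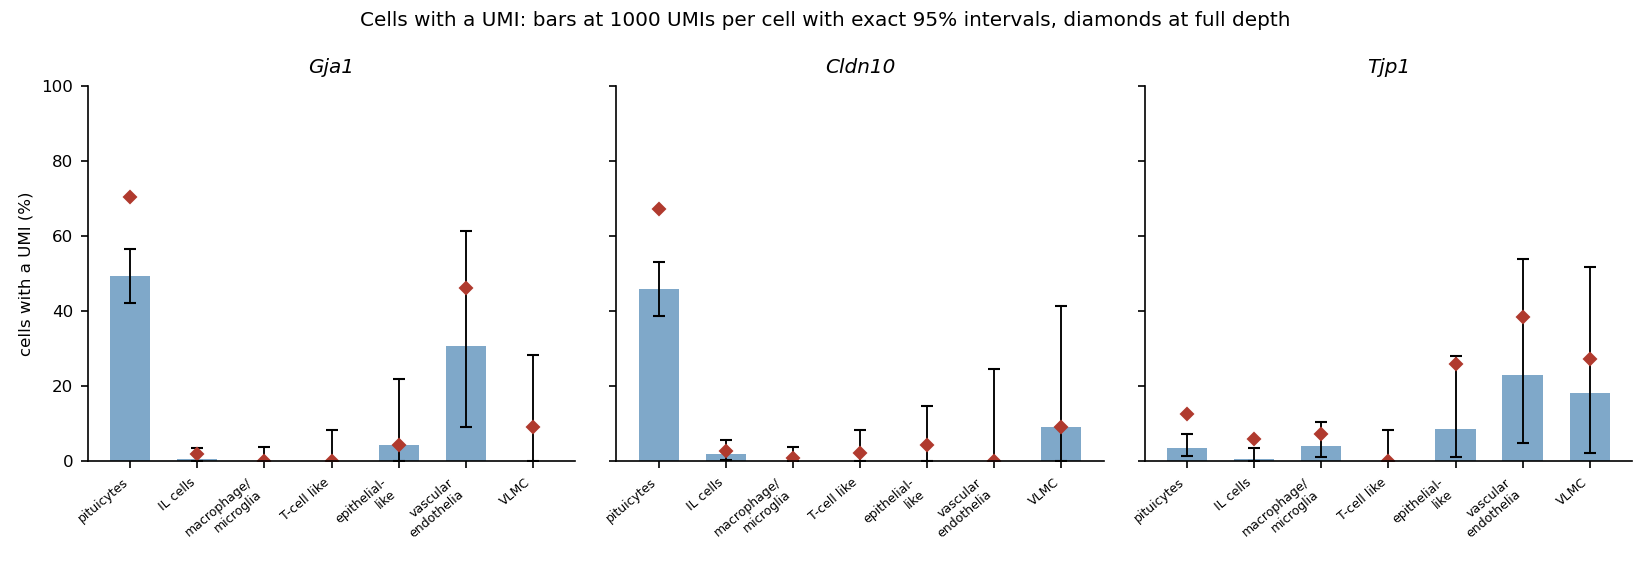
Percent of cells with a UMI (vertical axis) of *Gja1*, *Cldn10* and *Tjp1* in the 7 types, as bars with exact 95% intervals after thinning to 1000 UMIs per cell and as diamonds at full depth. The bars of *Gja1* and *Cldn10* in pituicytes stand at 49.5% and 45.9%, those of *Tjp1* are at 23.1% or below in each type.

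The pools differed in *Cldn10* among pituicytes, with 95% counting intervals of 574 to 788 CPM in pool 1 and 1068 to 1342 CPM in pool 2. The difference was not tested, since each pool is 1 sample. One pituicyte of pool 2 held 33 *Cldn10* UMIs, and without it the level of pool 2 was 1089 CPM. A median pituicyte held 1 *Cldn10* UMI in pool 1 and 2 in pool 2, with median depths of 1869 and 2457 UMIs.

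The deposited table splits pituicytes into the clusters a, b and c, with 87, 55 and 54 cells here. The authors' mean of *Gja1*, in UMIs per 10000 UMIs of a cell, was 7.68 in cluster a, 6.50 in b and 5.87 in c, and that of *Cldn10* was 9.72, 9.52 and 7.32. In CPM per pool, *Gja1* was 608 and 938 in cluster a, 730 and 472 in b and 576 and 558 in c. The range of b overlapped with those of a and c, while both values of a lay above both of c. Counting intervals (95%) of a and c overlapped in pool 1. In pool 2 they were 790 to 1104 CPM and 388 to 775 CPM and did not overlap. Differences between the clusters were not tested. Pool 2 had the higher *Gja1* value in a and the lower in b and c, and the 95% counting intervals of the pools overlapped in each cluster. *Cldn10* was 767 and 1278 CPM in cluster a, 577 and 1336 CPM in b and 669 and 924 CPM in c. For *Cldn10*, pool 2 was above pool 1 in all 3 clusters and the clusters overlapped. The median mitochondrial share of the cells was 11.4% and 9.09% in cluster a, 17.4% and 16.1% in b and 21.3% and 18.0% in c, and its part in these levels was not tested.

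**Figure D3:**
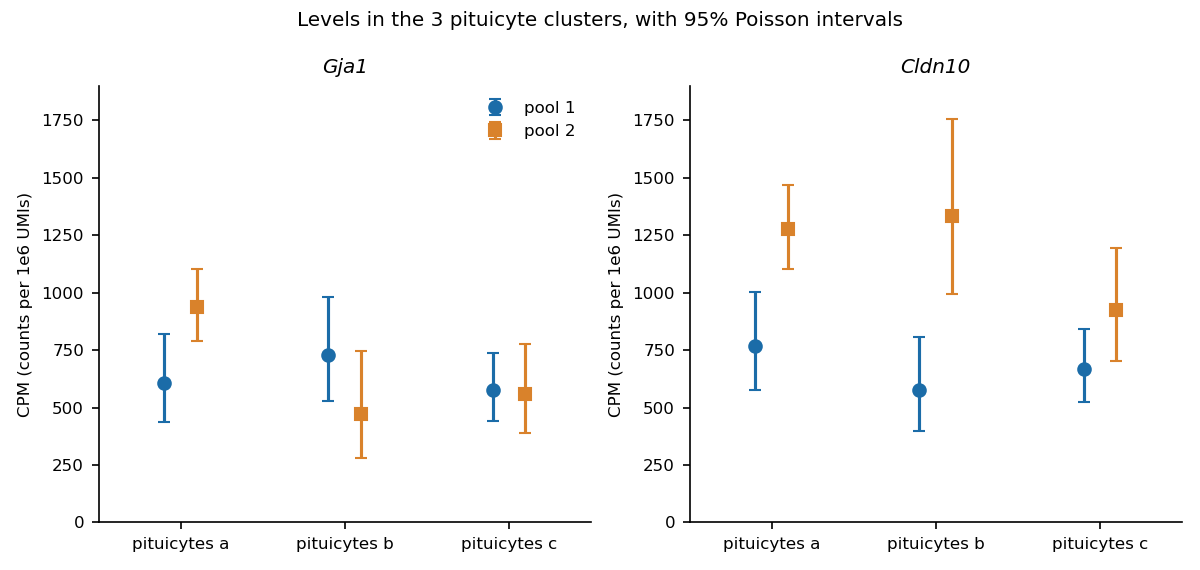
*Gja1* and *Cldn10* in CPM (vertical axes) in the pituicyte clusters a, b and c, with circles for pool 1, squares for pool 2 and 95% Poisson intervals. *Cldn10* is higher in pool 2 in each cluster, and the intervals of its pools overlap in cluster c, while those of *Gja1* overlap between the pools in all 3 clusters.

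Both genes were often found in the same pituicytes. At full depth 101 of the 196 pituicytes had both, 37 only *Gja1*, 31 only *Cldn10* and 27 neither. After thinning, 24.0% had both, where the product of the 2 shares is 22.7%.

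The genes whose levels over the 14 sums of type and pool were most like those of *Cldn10*, as Pearson's r of log2(CPM + 100), were *Grik3* (r = 0.981), *Cthrc1* (0.980) and *Mamdc2* (0.978). *Grik3*, a kainate receptor subunit gene, had 513 and 556 CPM in pituicytes. For *Gja1* they were *Hmcn1* (0.929), *Gpd2* (0.917) and the junctional adhesion gene *Jam3* (0.911). *Hmcn1*, which codes for an extracellular matrix protein, had 467 and 324 CPM in pituicytes and 353 and 480 CPM in vascular endothelia. *Gja1* and *Cldn10* had r = 0.770 with each other. These values describe the levels, and the sums of one pool share their library.

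*Cldn11*, known as the claudin of central myelin, lies on chr3:31149920-31164324 and was found in 5 cells with 25 UMIs. In VLMC it had 1060 CPM in pool 1 and 927 CPM in pool 2 (994 ± 93.8, SD, n = 2), from 9 and 14 UMIs. The only other UMIs were 2 in 1 macrophage/microglia cell of pool 2, so the groups did not overlap. Against the other 6 types *Cldn11* was higher by 5.73 on the ln scale (SE 0.60, adjusted p = 6.56e-19 in edgeR), where 2.88% of the genes were called, and against macrophage/microglia it was 3.77 (SE 0.63, adjusted p = 1.61e-07), where 3.70% were called. DESeq2 called neither, with adjusted p = 0.313 and 0.505. *Cldn11* passed the filter on low counts only through VLMC, so these tests are not independent of the filter.

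Most of the *Cldn11* UMIs of VLMC lay in cells without a VLMC marker. The deposited cluster is named OPC/LVMC, and 2 of its 11 cells, 1 in each pool, held 20 of the 23 *Cldn11* UMIs. These 2 cells had 447 UMIs of 10 oligodendrocyte markers, at 4.76% and 6.98% of their UMIs, and 0 UMIs of the 6 VLMC markers *Ogn*, *Lum*, *Dcn*, *Col1a1*, *Col1a2* and *Pdgfra*. The other 9 cells had 268 VLMC-marker UMIs, 11 oligodendrocyte-marker UMIs and 3 *Cldn11* UMIs. Of these 9 cells, 5 held 244 of the VLMC-marker UMIs, at 2.54% to 6.02% of their UMIs. The other 4 had only 3 to 8 such UMIs each, at 0.206% to 0.367%. In 1 of them all 6 such UMIs were of *Pdgfra*, which the study also names as a marker of oligodendrocyte precursors. Of these 4 cells, 2 held 19 UMIs of 4 markers of oligodendrocyte precursors, 18 of them in 1 cell. These 4 cells carried 2 of the 3 *Cldn11* UMIs and all of the 2 *Gja1* UMIs and 5 *Gjb2* UMIs of the VLMC. Both of these *Cldn11* UMIs were in a cell that Scrublet marked as a doublet. No other cell of the 528 exceeded 0.390% of oligodendrocyte-marker UMIs. The macrophage/microglia cell with 2 *Cldn11* UMIs held 7 oligodendrocyte-marker UMIs among its 5291 UMIs. In the other 6 types the summed level of these markers was between 60.4 and 353 CPM, against 19432 and 19407 CPM in VLMC. The same 2 cells held 3 UMIs of *Gjb1* and 5 of *Gjc3*, connexins known from myelinating glia. Without the 2 cells, *Cldn11* had a mean of 217 CPM in VLMC and did not pass the filter on low counts.

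**Figure D4:**
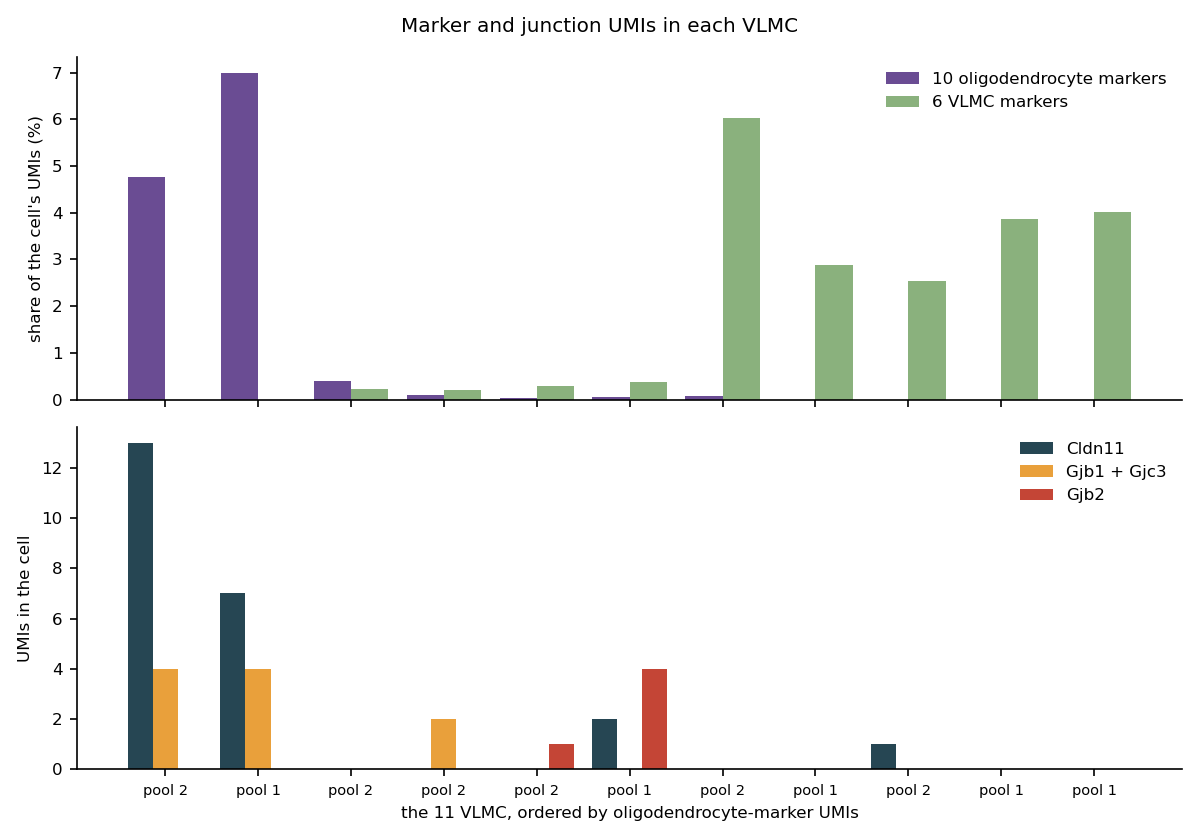
Share of UMIs from oligodendrocyte and VLMC markers in percent (upper panel) and UMIs of *Cldn11*, of *Gjb1* and *Gjc3* summed, and of *Gjb2* (lower panel) in each of the 11 VLMC, ordered by their oligodendrocyte-marker UMIs. The 2 cells at the left hold 13 and 7 *Cldn11* UMIs and no VLMC marker.

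The remaining connexins were close to the limit of detection and had too few UMIs for a test. *Gjb2*, a connexin of meningeal fibroblasts and epithelia, had 6 UMIs, of which 5 were in 2 VLMC and 1 in a pituicyte. Its VLMC level was 471 CPM in pool 1 and 66.2 CPM in pool 2, and the 4 UMIs of pool 1 were all in a cell that Scrublet marked as a doublet. Without that cell the mean over the pools was 33.1 CPM in place of 269 CPM. Both VLMC with *Gjb2* were among the 4 cells with few VLMC markers, with 8 and 7 such UMIs. *Gjb6*, an astrocyte connexin, had 2 UMIs, 1 in a pituicyte and 1 in a VLMC. *Gjb2* and *Gjb6* are neighbours on the minus strand of chromosome 14, at chr14:57098600-57104702 and chr14:57123303-57133611 with 18600 bases between them. *Gjd2*, the main connexin of neurons, lies on chr2:114009601-114013619, where the antisense transcript *A530058N18Rik* overlaps it, and had 1 UMI in each of 2 IL cells of pool 1. Pituicytes had no *Gjd2* UMI, which allows up to 6.13 CPM by the limit of 3 counts over both pools.

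*Cldn5*, the claudin of blood-brain barrier endothelium, (chr16:18776847-18778262) had a single UMI, in a pituicyte of pool 2. None of the 13 vascular endothelia had one, which allows up to 126 CPM at the 23834 UMIs of these cells and, by the exact 95% interval, up to 24.7% of the cells with a detected UMI at their median depth of 1412 UMIs, which does not limit the cells that express the gene. The same cells carried the 6 endothelial markers used here at 7932 CPM in pool 1 and 7527 CPM in pool 2. Of these 6 markers, 5 were highest in this type in both pools. The 4 genes of barrier endothelium *Mfsd2a*, *Slc2a1*, *Slco1c1* and *Abcb1a* had 1 UMI in pool 1 and 0 in pool 2. A lower level of *Cldn5* than this was not detectable at this depth.

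*Tjp1*, on the minus strand of chr7:65296165-65527781, was found thinly in 6 of the 7 types, with 58 UMIs in 55 cells. It was 88.1 and 320 CPM in vascular endothelia (204 ± 164, SD, n = 2), 0 and 199 CPM in VLMC, 51.8 and 84.6 CPM in epithelial-like cells and 50.9 and 59.2 CPM in pituicytes (55.0 ± 5.84, SD, n = 2). Macrophage/microglia had 22.6 and 55.6 CPM, IL cells 17.8 and 16.0 CPM, and T-cell like cells had no UMI, which allows up to 35.7 CPM. The values of vascular endothelia overlapped with those of VLMC, and each of VLMC, epithelial-like cells, pituicytes and macrophage/microglia overlapped with the next in this order. Macrophage/microglia and IL cells did not overlap in the 2 pools, from 8 and 9 UMIs over both, but their counting intervals of 17.6 to 80.2 CPM and 7.75 to 32.2 CPM did. *Tjp1* was called higher in no type, with a difference of 1.49 on the ln scale in vascular endothelia (SE 0.71, adjusted p = 0.315 in edgeR). The direct difference between vascular endothelia and VLMC was 0.43 (SE 0.85, adjusted p = 0.938), where 1.60% of the genes were called, and it turned to -0.47 without pool 2 of the endothelia. *Tjp1* was detected in 12.8% of the pituicytes at full depth and in 3.57% after thinning (1.45% to 7.22%), against 5.11% and 2.92% of the 137 macrophage/microglia and T-cell like cells.

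The other genes of the families were taken from lists of symbols. These had 35 symbols of claudins and claudin-domain genes, 23 of connexins and pannexins and 31 of further tight junction genes. Of these 89 symbols, 86 were in the matrices under that name, 59 had a UMI and 19 passed the filter on low counts. Of the 19, 13 were called higher in a type. The connexins and pannexins had 12 of 23 genes with a UMI, and *Gja1* alone passed the filter. Of the claudins, 6 passed, *Cldn3*, *Cldn7*, *Cldn9*, *Cldn10*, *Cldn11* and *Cldnd1*, and all but *Cldnd1* were called. *Cldn3*, *Cldn7* and *Cldn9* passed only through their values in epithelial-like cells, *Cldn10* through pituicytes and *Cldn11* through VLMC. The shares of the 19 genes called in these types are therefore not independent of the filter.

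In pituicytes 6 of the 19 genes were called, or 31.6% against the 16.8% of all genes. Beside *Gja1* and *Cldn10* they were *Ildr2*, a gene of tricellular junctions, *Jam3*, *Amotl1* and *Jam2*, with ln fold changes of 2.97, 2.37, 2.23 and 1.17. These 4 were named after their values were seen, since none was highest in pituicytes in both pools. *Cldn10*, *Ildr2* and *Jam3* passed the filter on low counts only with their pituicyte values. The share called in pituicytes and the tests of these genes there are therefore not independent of the filter. *Ildr2* had 161 and 178 CPM in pituicytes against 236 and 0 CPM in VLMC. The means of *Jam3*, *Amotl1* and *Jam2* were 147, 183 and 73.4 CPM in pituicytes. In vascular endothelia the means were higher, at 172 ± 130, 260 ± 255 and 128 ± 68.0 CPM (SD, n = 2), from at most 5 UMIs per pool. In pool 2 of the endothelia each gene had 1 UMI, or 80.1 CPM. That was below pituicytes of pool 2 for *Jam3* (142 CPM) and *Amotl1* (213 CPM) but not for *Jam2* (78.9 CPM). The calls of these genes thus do not mean that pituicytes had the highest level. The median ln fold change of the 19 genes was 0.702 in pituicytes, against 0.412 over all genes. The count was 4 to 9 under the alternatives, and with no filter on low counts it was 9 of 59 genes, 15.3% against 12.4% of all genes.

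A separate set of claudins was high in epithelial-like cells. *Cldn3*, *Cldn7* and *Cldn9*, known from epithelia, had 402 ± 90.2, 170 ± 94.3 and 257 ± 76.1 CPM there (SD, n = 2), with ln fold changes of 4.04, 4.33 and 4.25 (adjusted p = 8.65e-12, 6.77e-08 and 2.95e-08). DESeq2 did not call *Cldn7* there (adjusted p = 0.658), and it was not called without pool 2 of these cells (adjusted p = 0.213). All 3 claudins were also called in IL cells by edgeR, at 62.3 ± 2.60, 25.8 ± 13.8 and 28.2 ± 0.276 CPM. These fits too rest in part on the small count that edgeR adds where types had no UMI. With library size alone and with DESeq2 size factors as the scaling, edgeR did not call *Cldn9* there (adjusted p = 0.0914 and 0.0548). In IL cells *Cldn9* lost the call without pool 1 (adjusted p = 0.0996) and without pool 2 (adjusted p = 0.0733), and *Cldn7* lost it without pool 1 (adjusted p = 0.166). DESeq2 called none of the 19 junction genes in IL cells, where it called 4.43% of all genes. For *Cldn7* in IL cells it gave no adjusted p, which counts as not called. In pituicytes *Cldn3* had 12.4 CPM, *Cldn9* 4.09 CPM and *Cldn7* no UMI. Markers of anterior lobe endocrine cells, 6 hormone genes, were also found in these types. They summed to 35357 and 2758 CPM in the epithelial-like cells of pools 1 and 2, against 5643 and 4721 CPM of the 6 epithelial-like markers, and to 188 and 9369 CPM in IL cells. Without the 2 epithelial-like and 7 IL cells that held 1% or more of such UMIs, *Cldn3*, *Cldn7* and *Cldn9* had 473, 186 and 271 CPM in epithelial-like cells and 63.3, 26.6 and 29.6 CPM in IL cells. In all, 4 of the 19 genes were called in epithelial-like cells (21.1% against 7.96% of all genes) and 5 in IL cells (26.3% against 16.7%), with *Amotl1* the fourth in the former and *Jam2* and *Magi2* the others in the latter. Since the 3 claudins passed the filter only through epithelial-like cells, the first share is not independent of it. With no filter 8 of 59 genes were called in epithelial-like cells (13.6% against 2.27%) and 9 in IL cells (15.3% against 14.2%).

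In vascular endothelia *Gja1* and *Esam*, an endothelial adhesion gene, were called, 2 of 19 or 10.5% against 3.41%. *Esam* passed the filter on low counts only through its values there, so this share is not independent of the filter. With no filter 1 of 59 genes was called, 1.69% against 1.01% of all genes. *Esam* had 581 ± 198 CPM (SD, n = 2) and an ln fold change of 4.87 (adjusted p = 3.17e-10). In macrophage/microglia the 1 gene called of 19 was *F11r* (5.26% against 16.5%), a junctional adhesion gene that leukocytes also express. It had 519 ± 144 CPM there and an ln fold change of 1.85 (adjusted p = 1.07e-13 in edgeR). Its 417 and 621 CPM in pools 1 and 2 overlapped with the 353 and 480 CPM of vascular endothelia, from 4 and 6 UMIs. In VLMC the 1 called gene was *Cldn11* (5.26% against 2.88%). Without the 2 cells with oligodendrocyte markers none of 16 tested was called, where 1.8% of all genes were. In edgeR, 0 of these 16 had an unadjusted p under 0.05 with an ln fold change of at least 1. In T-cell like cells 0 of 19 were called by edgeR and by DESeq2, against 9.47% and 3.92% of all genes. By either test 0 had an unadjusted p under 0.05 with an ln fold change of at least 1. The median ln fold change of the 19 genes there was -2.38, against -0.114 over all genes. This median is the value of *Cldn3*, which had no UMI in T-cell like cells. It rests on the small count that edgeR adds and does not measure a lower level.

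**Figure D5:**
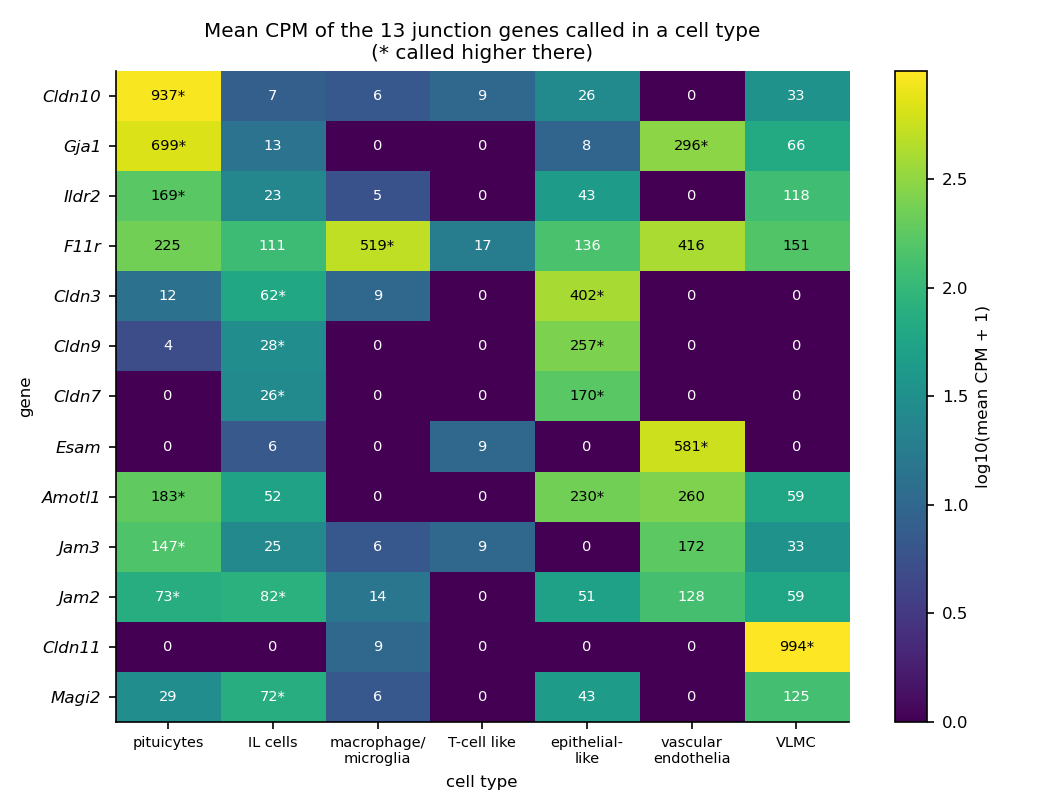
Mean CPM over 2 pools (printed in each cell, colour as log10 of CPM + 1) of the 13 junction genes called in a type (rows) in the 7 types (columns), with a star where the gene was called higher. *Gja1* and *Cldn10* stand out in pituicytes, *Cldn3*, *Cldn7* and *Cldn9* in epithelial-like cells and *Esam* in vascular endothelia.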

How the data were processed

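For each pool the deposited file held counts of UMIs, made by the authors with Cell Ranger and its mm10 reference and not normalized. A second deposited table held the mean of each of 11 clusters, in linear UMIs per 10000 UMIs of a cell averaged with Seurat over both pools. The submitters' processing notes name Cell Ranger 1.2.1, 2.0.0 and 2.1, STAR 2.5.1b and Seurat 2.3, with no role given. Of the 1500 barcodes with most UMIs per pool, those with over 1000 and under 10000 UMIs, over 400 and under 5000 genes and under 25% mitochondrial UMIs were kept. Each cell was solved by non-negative weights against the 11 means. Its best weight was at least 0.981 and its next at most 0.00315, and 349 of the 15025 means differed by over 0.05 from the assigned cells. The 11 clusters were joined to the 7 types of the study.

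Counts were summed per type and pool into 14 sums of 8491 to 281271 UMIs and tested with edgeR 4.0.16 in R 4.3.3 (quasi-likelihood, TMM, minimum count 5, minimum total 15, 7 residual degrees of freedom, common dispersion 0.038), after a test on simulated data. P-values were adjusted over all 4510 genes. *Gja1*, *Cldn10*, *Cldn11* and *Tjp1* passed the filter and the other 4 genes did not. Types of one pool come from the same mice, which pairs the sums, and the pool differences of types had correlations across genes of -0.023 to 0.102 over the 21 pairs of types (median 0.0206). Free RNA had the profile of 157608 near-empty barcodes (1 to 50 UMIs, pool 1) and was scaled by *Pomc* in immune cells, as 6.10% and 5.19% of UMIs in pools 1 and 2. Scrublet (scanpy 1.11.5) marked 5 doublets, which were kept. Positions come from GENCODE M21 and promoters from RefSeq GRCm38.p6, which matched all 8 genes.

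The values of 1 list gene are not reported here. The genes and lists were chosen with earlier results of these data known. The text names the 8 genes, list genes called higher in a type and highest there in both pools (at most 4 per type and list), and the 3 genes most alike each member with at least 50 UMIs. *Jam2*, *Jam3*, *Ildr2*, *Amotl1*, *Magi2*, *Cldnd1*, *Gjb1* and *Gjc3* were named beside this rule after their values were seen, and so were marker genes. Genes alike *Tjp1* were *4931406P16Rik* (r = 0.944), *Clic4* (0.874) and *Spred1* (0.872). Alternatives were other scalings, DESeq2 1.42.0, no filter, a pool block, a mitochondrial limit of 10%, cells without doublets, oligodendrocyte markers or, for 3 claudins, anterior lobe markers, free RNA subtracted, cells clustered again with Seurat 5.3.0 without junction genes, and each pool of a type left out.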

Additional observations from a re-analysis of the deposited data

Results flagged for a closer look

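No group held more than 2 samples and no contrast was measured in 2 groups, so only signal in barcodes that the comparisons do not use was looked for, as genes with over 3 UMIs there. Among the forced barcodes that failed the limits on cells, *Cldn10* had 165 CPM in pool 1 and 92.3 CPM in pool 2, *Gja1* 175 and 102 CPM, and *Tjp1* 20.5 and 24.1 CPM. In the same barcodes *Gjb6* had 5.12 CPM in pool 1, from 4 UMIs, and *Cldn11* had 5.35 CPM in pool 2, from 4 UMIs. In the 157608 barcodes of pool 1 with 1 to 50 UMIs, *Cldn10* had 132 CPM, *Gja1* 85.6 CPM, *Tjp1* 16.4 CPM and *Cldn5* 3.17 CPM. The *Cldn5* value comes from 6 UMIs, against 1 in all kept cells.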

How the results depend on the processing

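*Gja1* and *Cldn10* stayed called in pituicytes under all 12 alternatives run for each, with ln fold changes of 3.65 to 5.06 and 4.28 to 5.11, where clustering again contrasts 4 types in place of 6. The pools as a replicate block (4.12 and 4.72 for these) changed no call. The call of *Gja1* in vascular endothelia was lost without the filter (2.32) and without either pool (2.27 to 2.55). That of pituicytes over vascular endothelia was lost with library size alone (0.864), DESeq2 size factors (0.986), DESeq2 (0.989) and a mitochondrial limit of 10% (1.03). DESeq2 lost *Cldn11* in VLMC (5.57), *Cldn11* against macrophage/microglia (4.54) and *Cldn10* against VLMC (3.14). *Tjp1* in vascular endothelia against VLMC was between -0.47 and 0.90 with a pool of vascular endothelia left out. Library size alone moved the median of all genes by -0.33 to 0.52 on the ln scale, depending on the type, and DESeq2 size factors by -0.26 to 0.40.

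The junction genes tested were 19 (59 with no filter, 11 with the 10% limit, 22 with the cells clustered again and 16 without cells with oligodendrocyte markers). The share of them called is given against that of all genes in the same setting. In IL cells, against 5, they were 3 with library size alone (15.8% against 10.1%) and 0 with DESeq2 (against 4.43%). With DESeq2, 3 had an unadjusted p under 0.05 with an ln fold change of at least 1. With no filter 9 were called (15.3% against 14.2%) and with the 10% limit 2 (18.2% against 11.7%). In epithelial-like cells, against 4, they were 8 with no filter (13.6% against 2.27%). There were 1 with the 10% limit (9.09% against 5.29%) and 9 with the cells clustered again (40.9% against 9.73%). The group clustered again had 42 cells, of which 22 were epithelial-like, 13 vascular endothelia and 7 VLMC, so its count is not of the same cells. In pituicytes, against 6, they were 4 with the 10% limit (36.4% against 9.11%) and 7 with the cells clustered again (31.8% against 15.4%). With no filter 9 were called (15.3% against 12.4%). The other settings with both pools gave 5 to 6 (26.3% to 37.5%, against 4.77% to 17.7%). In vascular endothelia, against 2, they were 3 with library size alone, DESeq2 size factors and DESeq2 (15.8% each, against 5.3%, 4.63% and 4.37%). There were 3 with the 10% limit (27.3% against 6.9%) and 1 with no filter (1.69% against 1.01%). In VLMC, against 1, they were 0 with DESeq2 (2 by the same unadjusted rule), against 3.33% of all genes. There were 3 with no filter (5.08% against 0.861%) and 0 without the cells with oligodendrocyte markers (against 1.8%). The causes were not tested. Under the 10% limit fewer cells entered, and 2361 genes were tested in place of 4510.

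With the 10% limit *Gja1* was 562 CPM and *Tjp1* 36.0 CPM in pituicytes and *Cldn11* 1270 CPM in VLMC. This limit left 11 of 108 pituicytes in pool 1 and 38 of 88 in pool 2. Of the VLMC it left 3 of 5 in pool 1 and 3 of 6 in pool 2. *Cldn11* was 217 CPM without the cells with oligodendrocyte markers and 623 CPM as a mean over cells, where *Tjp1* in pituicytes was 48.5 CPM. At full depth 70.4%, 67.3% and 12.8% of the pituicytes had a UMI of *Gja1*, *Cldn10* and *Tjp1*, and with a minimum of 2 UMIs after thinning 15.3%, 21.9% and 0% did, and 0% of vascular endothelia for *Gja1*. The following were chosen after seeing the data. Without the pituicyte with most *Cldn10* UMIs, pool 2 had 1089 CPM of it. Without doublets *Gjb2* in VLMC was 33.1 CPM against 269 CPM. Without cells with anterior lobe markers *Cldn9* in IL cells was 29.6 CPM. Clustering again named no cluster vascular endothelia or VLMC, and no value exists for them there. DESeq2 gave no adjusted p for 1 of the contrasts. Sums of 8491 to 15098 UMIs per pool limit vascular endothelia and VLMC.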
